A study of Arabidopsis thaliana with 18 samples.

Results

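Transcripts of developing Arabidopsis thaliana seeds were compared between 3 libraries titled AtWTtr and 3 titled AtWT, all of wild-type (Col-0) genotype, over every gene of the count table. These 6 libraries are part of a series of 18, which studied a double mutant of BADC1 and BADC3, subunit-like proteins that hold back the plastid acetyl-CoA carboxylase of oil synthesis. The table held 33602 genes, of which 19376 had enough counts to be tested. The study's design text describes 2 kinds of RNA: total RNA of seeds taken 9 to 10 days after flowering, and RNA pulled down with an anti-FLAG gel from plants that carry HF-RPL18, a ribosomal protein with a histidine-FLAG tag under the glycinin promoter of soybean. No label says what "tr" abbreviates, the protocol labels of AtWTtr and AtWT are word for word the same, and neither says whether the AtWT plants carried the transgene. The 2 groups are therefore called by their titles. Per the labels the plants grew with 16 h of light, the transformants were chosen by DsRed fluorescence and FLAG signal in seeds, and the source of both groups was developing seed. The numbers of plants and of transgenic lines are not given. Nothing states that libraries of a group came from separate plants, so p-values measure only the spread between these libraries, which may be technical. AtBDtr and AtBD, 3 libraries each of the badc1/3 double mutant, were fitted along and are used only to set the same difference beside that of wild type.

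In affinity purification of translating ribosomes, a tagged ribosomal protein is made under a promoter of choice, and the tag is used to pull down ribosomes with the messages they are translating. The RNA recovered then depends both on how well a message is loaded with ribosomes and on whether the cell that holds it makes the tag. An Arabidopsis seed of this age holds a filling embryo, a thin remaining endosperm and a seed coat of maternal origin. The glycinin promoter belongs to a storage protein gene and is known as a seed promoter. The embryo stores 12S cruciferins, 2S albumins and oil, and later makes late embryogenesis abundant (LEA) proteins against drying. The seed coat lays down tannins, mucilage and suberin, and then dies.

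Totals of counts were 16977673, 20738820 and 22365598 in AtWTtr, and 32547007, 23826224 and 21517449 in AtWT. Counts spread over fewer genes in AtWTtr, where 17987 to 19578 genes had a count, against 21054 to 22870 in AtWT. It took the 17, 11 and 7 most abundant genes to reach 50% of the counts in the 3 AtWTtr libraries, against 307, 232 and 363 genes in AtWT. The 10 most abundant genes took 46.0% to 55.4% of counts in AtWTtr and 24.1% to 27.5% in AtWT. SESA3, a 2S albumin gene, was the most abundant gene in all 6 libraries. On the first principal component (68.4% of the variance) the groups stood apart. On the second (14.8%) AtWTtr1 had a score of 98.4, while AtWTtr2 and AtWTtr3 had -66.9 and -25.2. AtWTtr1 thus stood apart from the other AtWTtr libraries.

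The comparison asks which transcripts were over- or under-represented in AtWTtr. With edgeR's quasi-likelihood test and a Benjamini-Hochberg adjusted p under 0.05, 2931 of 19376 genes were higher in AtWTtr (15.1%) and 3692 were lower (19.1%), which is 34.2% in all. Falls were much larger than rises. The median log2 fold change was 1.01 over the genes that rose and -2.45 over those that fell, against -0.04 over all genes tested. A change of at least 8-fold (3 on the log2 scale) was reached by 104 of the genes that rose and 1448 of those that fell. Of the genes that fell, 327 had 0 counts in AtWTtr, and with these set at their bound the median was -2.44 and 1379 fell by at least 8-fold. At least 10 CPM (counts over the library total after TMM scaling, brought to a common size) in every AtWT library and under 1 CPM in every AtWTtr library was found for 44 genes, and the opposite for 0. The TMM factors were 0.86, 0.75 and 0.64 in AtWTtr and 1.48, 1.35 and 1.52 in AtWT. CPM are therefore not shares of counts: SESA3, at 273469 CPM in AtWTtr3, took 17.5% of its counts. Differences between the groups in CPM and in log2 fold change exceed those in shares for genes that rose. For 48.6% of the genes tested, all AtWTtr values lay on 1 side of all AtWT values. The direction of small changes depends on the scaling: with libraries scaled to the total outside the storage protein, oil body and LEA genes, 1604 genes were higher and 4660 lower, so that 25.6% of the called genes were higher, against 44.3% with TMM. That scaling moved the median of all genes to -0.30, so rises smaller than about that shift are relative to it. In these data fewer cells of a type and less RNA per cell cannot be told apart. Should AtWTtr be the pulled-down RNA, which no label states, ribosome loading and which cells make the tag cannot be told apart from these either.

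**Figure D1:**
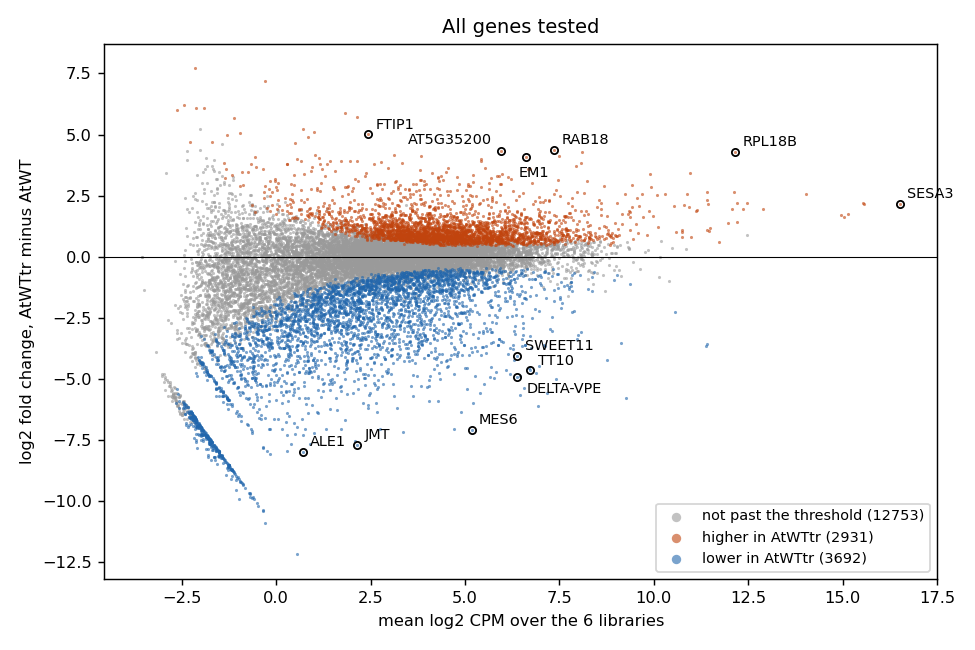
Log2 fold change of AtWTtr over AtWT against the mean log2 CPM of the 6 libraries for the 19376 genes tested, with 1 point per gene, and some of the genes described in the text labelled. The 2931 genes that rose mostly lie below 2.5 on the vertical axis, while many of the 3692 genes that fell lie below -2.5, and RPL18B and SESA3 stand out among abundant genes.

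RPL18B (AT3G05590, chromosome 3, 1621355 to 1623052, RefSeq TAIR10.1) is 1 of the genes for cytosolic ribosomal protein L18, the protein that carries the tag in the transgene. It had 16458, 18154 and 26588 CPM in AtWTtr, against 998, 1145 and 971 CPM in AtWT. Every AtWTtr library lay far above every AtWT library, a log2 fold change of 4.30 (SE 0.27) with an adjusted p of 1.12e-07 (edgeR). The labels do not say which RPL18 gene was cloned, and reads of the transgene and of the gene itself cannot be told apart in these counts. RPL18C had 429.7, 351 and 299 CPM in AtWTtr and 156, 329 and 213 CPM in AtWT. These overlapped (log2 fold change 0.63 (SE 0.27), adjusted p = 0.0866 in edgeR), although the call was made without AtWT2 (0.96, adjusted p = 0.0165). BADC1 and BADC3 did not pass the threshold, with log2 fold changes of -0.26 (SE 0.26) and 0.23 (SE 0.32).

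Other ribosomal protein genes that rose did so by far less. Of 176 tested genes for cytosolic ribosomal proteins, which build the large and small subunits, 79 were higher in AtWTtr and 3 lower, with a median log2 fold change of 0.58. Without RPL18B, the other 175 summed to 32483, 24430.1 and 27796 CPM in AtWTtr, against 15250.3, 22761 and 16836 CPM in AtWT. AtWTtr2 was then close to AtWT2, the highest AtWT library. As shares of counts, without TMM scaling, the whole list with RPL18B took 4.22%, 3.20% and 3.48% in AtWTtr. It took 2.40%, 3.22% and 2.71% in AtWT. The RPL18 genes with BADC1 and BADC3 took 1.47%, 1.40% and 1.73% in AtWTtr, against 0.195%, 0.217% and 0.201% in AtWT. By these shares, the other ribosomal genes lay above the highest AtWT library in no AtWTtr library. In AtWTtr2 and AtWTtr3 their share was below that of every AtWT library. AT2G32220, annotated as a ribosomal L27e protein, had 27.3, 27.7 and 21.8 CPM in AtWTtr and 7.35, 10.4 and 10.2 CPM in AtWT, with no overlap (log2 fold change 1.46 (SE 0.20)). The count of higher ribosomal genes was 46 without AtWTtr1, 36 without AtWT1 and 40 without AtWT3, and it was 30 with the scaling outside storage genes, so these counts depend on single libraries and on the scaling. Of 14 translation factors, 6 were higher and 0 lower, and 3 were higher without AtWTtr3 or with that scaling. As a share of counts these factors took 0.392%, 0.267% and 0.381% in AtWTtr, less than the 0.464%, 0.425% and 0.455% in AtWT. EIF4G, the scaffold of the cap-binding complex, had 65.1, 75.6 and 72.9 CPM in AtWTtr, against 40.8, 27.0 and 41.6 CPM in AtWT. PAB8, a poly(A)-binding protein, had 101, 98.7 and 109 CPM in AtWTtr and 53.0, 40.8 and 53.2 CPM in AtWT. In TMM-scaled CPM the groups did not overlap for either gene, and the log2 fold changes were 0.97 (SE 0.20) and 1.07 (SE 0.19). As counts over the unscaled totals, the groups overlapped for both genes.

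Storage protein genes rose together. All 5 tested 2S albumin genes and all 8 tested cruciferin and vicilin-like genes were higher in AtWTtr, with median log2 fold changes of 2.196 and 1.82, against 15.1% of all genes and a median of -0.04. SESA3 had 155383, 175870.0 and 273469 CPM in AtWTtr, against 44782, 53227 and 36795 CPM in AtWT, with no overlap (log2 fold change 2.17 (SE 0.34), adjusted p = 0.000185 in edgeR). CRC, which codes for a 12S cruciferin, had 73231, 98348 and 140905 CPM in AtWTtr and 24408, 23839 and 21874 CPM in AtWT. AtWTtr3 was highest for both genes, and the lowest AtWTtr library was still above every AtWT library. The smallest rise of these lists was that of AT4G36700, a vicilin-like cupin gene, with a log2 fold change of 0.82 (SE 0.20), and with the scaling outside storage genes 7 of the 8 genes kept a call as higher. Together the 2S albumins took 27.3% to 32.1% of all counts in AtWTtr and 11.2% to 15.3% in AtWT. The cruciferins and vicilins took 16.1% to 19.0% in AtWTtr and 9.37% to 10.2% in AtWT. SESA1 to SESA4 are similar neighbouring copies, and reads that map to several places are not counted, so their single values are less certain than their sum.

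Of 12 tested genes for proteins of the oil body, the droplet that holds the seed's oil, 11 were higher and 1 was lower, with a median log2 fold change of 2.002. OLEO1, the main seed oleosin, had 28608, 43249 and 53459 CPM in AtWTtr, against 7040.0, 7407 and 6478 CPM in AtWT (log2 fold change 2.58 (SE 0.30)). CLO1, a seed caleosin, had 3574, 4891 and 3466 CPM in AtWTtr and 839, 1180.4 and 892 CPM in AtWT. Both genes were higher in every AtWTtr library than in any AtWT library. The exception was CLO3, a caleosin known from leaves under stress, with 11.6, 22.3 and 22.03 CPM in AtWTtr and 117, 172 and 186 CPM in AtWT. Here every AtWTtr library was the lower one, and the log2 fold change was -3.08 (SE 0.31) (adjusted p = 3.76e-06, edgeR).

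**Figure D2:**
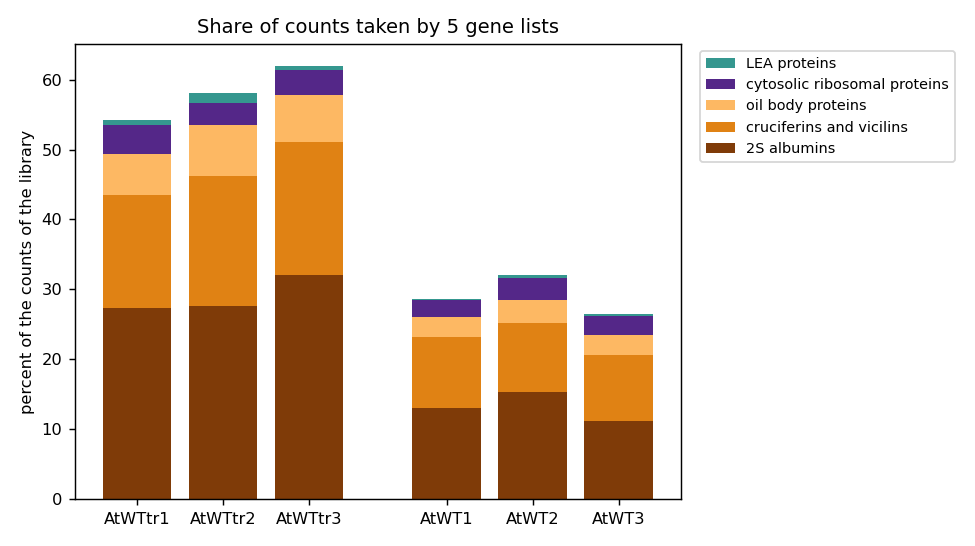
Percent of all counts taken in each library by all members of 5 gene lists in the count table, tested or not, stacked, with the 3 AtWTtr libraries left of the 3 AtWT libraries. The 2S albumins alone reach 27.3% to 32.1% of counts in AtWTtr and 11.2% to 15.3% in AtWT.

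The upstream sequences of SESA3, OLEO1 and the LEA gene EM1 are printed because seed maturation genes are known to be controlled through 2 short elements, the RY element (CATGCA) bound by B3 factors such as ABI3 and FUS3, and the ABRE core (ACGTG) bound by bZIP factors. Each line gives 250 bases that end just before the annotated gene start in RefSeq TAIR10.1, 5′ to 3′ on the strand of the gene, and capitals mark matches of either motif on either strand. SESA3 (chromosome 4, 13611546 to 13611795, plus strand) held 7 RY matches and 2 ABRE core matches, overlapping matches counted each. OLEO1 (chromosome 4, 12900180 to 12900429, plus strand) held 3 and 5. EM1 (chromosome 3, 19214472 to 19214721, plus strand), a LEA gene, held 0 and 2.
SESA3: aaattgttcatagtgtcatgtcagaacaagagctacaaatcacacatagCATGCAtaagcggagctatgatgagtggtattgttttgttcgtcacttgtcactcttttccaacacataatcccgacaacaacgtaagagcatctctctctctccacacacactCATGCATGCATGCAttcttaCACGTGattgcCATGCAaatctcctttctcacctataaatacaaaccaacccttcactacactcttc
OLEO1: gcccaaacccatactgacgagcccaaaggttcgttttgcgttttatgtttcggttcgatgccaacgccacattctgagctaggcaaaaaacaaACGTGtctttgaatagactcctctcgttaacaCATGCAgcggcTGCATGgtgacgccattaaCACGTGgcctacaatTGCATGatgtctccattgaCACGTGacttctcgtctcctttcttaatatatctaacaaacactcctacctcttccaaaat
EM1: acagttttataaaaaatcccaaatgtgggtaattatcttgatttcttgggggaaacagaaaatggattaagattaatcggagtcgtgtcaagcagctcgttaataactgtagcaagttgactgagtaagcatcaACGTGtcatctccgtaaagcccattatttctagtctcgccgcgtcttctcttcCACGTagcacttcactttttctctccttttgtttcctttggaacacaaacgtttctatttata

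Over all 27443 protein-coding nuclear genes, 8.43% of such windows held the RY letters and 22.9% the ABRE core. Genes that rose and genes that fell differed little as whole sets. RY was held by 10.2% of the 2909 that rose, 9.24% of the 3570 that fell and 6.96% of those not called. The ABRE core was held by 29.2%, 27.3% and 21.6%. Among the 320 genes higher by at least 2 on the log2 scale, 21.6% held RY and 51.9% the ABRE core. Among the 2104 genes lower by at least 2 the shares were 10.7% and 27.2%. RY was present in 5 of 5 albumin, 6 of 8 cruciferin and vicilin, 11 of 12 oil body and 6 of 25 LEA windows. The ABRE core was present in 5 of 5, 4 of 8, 9 of 12 and 24 of 25. On the other strand CATGCA reads TGCATG and ACGTG reads CACGT, and matches may overlap each other, so that CACGTG holds 2 ABRE core matches. These are matches of letters and describe the windows only.

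LEA genes rose most of the embryo lists. Of 25 tested LEA genes, 24 were higher in AtWTtr and 0 lower, with a median log2 fold change of 2.78. EM1 had 132, 742 and 482 CPM in AtWTtr, against 20.1, 26.2 and 33.8 CPM in AtWT (log2 fold change 4.08 (SE 0.70), adjusted p = 0.000396 in edgeR). RAB18, a dehydrin induced by abscisic acid, had 273, 1936 and 594 CPM in AtWTtr and 20.1, 70.3 and 43.8 CPM in AtWT. AtWTtr1 was the lowest and AtWTtr2 the highest AtWTtr library for both, and all 3 lay above AtWT. EM6, the gene with the largest rise by the naming rule, had 2.67, 116 and 28.0 CPM in AtWTtr, against 0.395, 0.965 and 1.46 CPM in AtWT. Its log2 fold change of 5.73 (SE 1.51) had a wide error, and AtWTtr1 was close to the highest AtWT library. M10, too low for that rule, had a larger log2 fold change of 7.20 (SE 1.62), with 1.03, 15.9 and 8.32 CPM in AtWTtr and 0.104, 0 and 0.0305 CPM in AtWT. The dehydrin gene LEA (AT2G21490) had 1405, 2099 and 1710.1 CPM in AtWTtr and 314, 383 and 295 CPM in AtWT, with a log2 fold change of 2.39 (SE 0.28). The summed level of the list was 8069.8, 19565 and 10741 CPM in AtWTtr and 1417, 2530.5 and 1944 CPM in AtWT. The member not called, AT2G18340, had 1.57, 15.1 and 8.67 CPM in AtWTtr and 5.63, 5.85 and 7.42 CPM in AtWT, and its groups overlapped.

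Other late seed genes went both ways. Of 9 tested, 4 rose and 3 fell. The seed aquaporins TIP3;1 and TIP3;2 rose by 2.55 (SE 0.31) and 2.57 (SE 0.29) on the log2 scale, and PER1, a seed peroxiredoxin, rose by 2.12 (SE 0.30). RS4, which makes stachyose, had 144, 208 and 167 CPM in AtWTtr, against 23.6, 19.0 and 23.3 CPM in AtWT. Its groups lay far apart with little spread (log2 fold change 2.97 (SE 0.20), adjusted p = 1.44e-07 in edgeR). The raffinose family genes GOLS2, GOLS3 and RS5, for galactinol synthases and a raffinose synthase, fell, each under 6 CPM in every AtWTtr library. GOLS2 had 2.05, 5.33 and 5.52 CPM in AtWTtr and 15.9, 14.7 and 17.3 CPM in AtWT.

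Of 15 tested regulators of seed maturation, 9 were higher and 3 lower, with a median log2 fold change of 1.25. Over all genes tested, 15.1% were higher and 19.1% lower. As a share of counts the list took 0.157%, 0.133% and 0.109% in AtWTtr and 0.136%, 0.135% and 0.131% in AtWT, which overlapped. ABI3, the B3 factor that drives storage and LEA genes, had 255, 285 and 334 CPM in AtWTtr, against 74.0, 45.4 and 68.5 CPM in AtWT (log2 fold change 2.22 (SE 0.22)). DOG1, which sets seed dormancy, had 245, 343 and 289.8 CPM in AtWTtr and 51.4, 51.7 and 56.3 CPM in AtWT (log2 fold change 2.46 (SE 0.23)). The groups did not overlap for either. BZIP67, which acts with LEC1 on storage genes, had 196, 204 and 149 CPM in AtWTtr and 57.9, 64.8 and 58.6 CPM in AtWT. FUS3 had 76.8, 84.2 and 80.6 CPM in AtWTtr and 50.7, 41.1 and 41.9 CPM in AtWT, a smaller rise of 0.85 (SE 0.16). HSFA9, the heat shock factor of seeds, was called as higher (5.69 (SE 1.75)) although AtWTtr1 had 0 counts, with 0, 11.8 and 2.38 CPM in AtWTtr and 0.125, 0 and 0.122 CPM in AtWT. The genes that fell include LEC1 and LEC2, which act early in the embryo. LEC1, a subunit of the NF-Y factor, had 1.23, 0.128 and 1.19 CPM in AtWTtr, against 19.1, 17.8 and 17.8 CPM in AtWT (log2 fold change -4.43 (SE 0.59), adjusted p = 4.87e-05 in edgeR). LEC2 had 1 count in the 3 AtWTtr libraries and 155 in AtWT, where the ratio of AtWT over AtWTtr was 61.0 with a 95% counting interval of 10.8 to 2425. WRI1, which drives fatty acid synthesis genes, had 165, 116 and 184 CPM in AtWTtr and 142, 142 and 130.1 CPM in AtWT, and its groups overlapped. L1L, the relative of LEC1, was not called either (log2 fold change -0.89 (SE 0.41)).

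Genes for the sorting and cutting of storage proteins in the vacuole split. Of 12 tested, 4 rose and 6 fell. The vacuolar processing enzyme BETA-VPE, the seed form, had 799, 1162 and 784 CPM in AtWTtr, against 349, 398 and 352 CPM in AtWT. DELTA-VPE (AT3G20210, chromosome 3, 7052347 to 7054743), which takes part in cell death of inner seed coat layers, had 17.9, 17.1 and 10.7 CPM in AtWTtr and 479.9, 462 and 454 CPM in AtWT. The 2 enzymes of 1 family thus went opposite ways, with log2 fold changes of 1.32 (SE 0.21) and -4.93 (SE 0.35). ALPHA-VPE and GAMMA-VPE, the forms of vegetative organs, fell by 2.24 and 1.24 on the log2 scale. The sorting receptor VSR1 did not pass the threshold (0.03 (SE 0.17)), whereas VSR6 fell by 5.15 on the log2 scale and had 0.957, 0 and 0.420 CPM in AtWTtr and 18.4, 12.01 and 18.5 CPM in AtWT. The count of genes that rose was 2 without AtWT1 and 1 with the scaling outside storage genes, and the call of BETA-VPE is the 1 of these with a rise of at least 1 on the log2 scale.

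Lists of genes that make the stored lipid held both rises and falls, beside 15.1% higher and 19.1% lower over all genes tested. Of 30 tested genes of plastid fatty acid synthesis, 5 were higher and 1 lower, with a median log2 fold change of 0.03 that is -0.22 with the scaling outside storage genes. ACP1, an acyl carrier protein, had 1052, 604 and 825 CPM in AtWTtr, against 341, 329.8 and 283 CPM in AtWT (log2 fold change 1.38 (SE 0.22)). FAB2, the stearoyl desaturase, had 712, 711 and 928 CPM in AtWTtr and 356, 390.1 and 331 CPM in AtWT (log2 fold change 1.13 (SE 0.19)). The groups did not overlap for either gene. Without AtWTtr1, AtWTtr3 or AtWT3, 3 genes of this list were higher. The list took 0.728%, 0.395% and 0.505% of counts in AtWTtr, less than the 0.907%, 0.799% and 0.807% in AtWT. Of 19 tested genes of triacylglycerol assembly, 5 were higher and 2 lower, with a median of 0.29, and 3 were higher without AtWTtr3, AtWT2 or AtWT3. DGAT1, which adds the last acyl chain, had 111, 108 and 99.4 CPM in AtWTtr, against 58.0, 53.7 and 51.0 CPM in AtWT. FAD3, the linoleate desaturase, had 1431, 1629.7 and 1994 CPM in AtWTtr and 786, 727 and 687 CPM in AtWT. SEIPIN1, a protein of oil body formation, had 17.2, 32.4 and 16.7 CPM in AtWTtr and 4.36, 5.10 and 4.36 CPM in AtWT. In these genes every AtWTtr library was higher, and the log2 fold changes were 0.96 (SE 0.16), 1.20 (SE 0.20) and 2.26 (SE 0.34). AAPT2, an aminoalcohol phosphotransferase of phospholipid synthesis, fell by 2.42 (SE 0.23).

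Primary metabolism was mixed. Over all genes tested 15.1% were higher and 19.1% lower, and the lists below were called about as often. Of 19 tested genes of sucrose breakdown and glycolysis, 2 were higher and 4 lower. These counts were 4 and 3 without AtWTtr2, 1 and 4 without AtWTtr3, and 3 and 5 without AtWTtr1. The sucrose synthase genes diverged: SUS3 had 104, 293 and 178 CPM in AtWTtr and 34.8, 36.5 and 43.7 CPM in AtWT, while SUS1 had 5.06, 3.40 and 2.66 CPM in AtWTtr and 20.6, 21.1 and 25.4 CPM in AtWT. SUS3 was higher and SUS1 lower in every AtWTtr library, with log2 fold changes of 2.33 (SE 0.37) and -2.59 (SE 0.28). Of 20 starch genes 4 were higher and 3 lower, and BAM1, a beta-amylase, fell by 1.34. Of 19 genes of lipid breakdown 2 were higher and 4 lower, and without AtWTtr1 these counts were 5 and 2. Without AtWT1 or AtWT3 they were 2 and 2. The 2 that rose code for the glyoxylate cycle enzymes ICL and MLS, with log2 fold changes of 1.81 (SE 0.26) and 2.47 (SE 0.52). Of 20 chaperones and folding enzymes of the endoplasmic reticulum, 4 were higher and 2 lower, but 2 were higher and 4 lower without AtWTtr1. Without AtWT3 the counts were 2 and 2, and with the scaling outside storage genes 1 and 5. SHD, the reticulum's HSP90, had 121, 57.7 and 63.1 CPM in AtWTtr and 252, 261 and 269 CPM in AtWT, and was lower in each AtWTtr library.

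**Figure D3:**
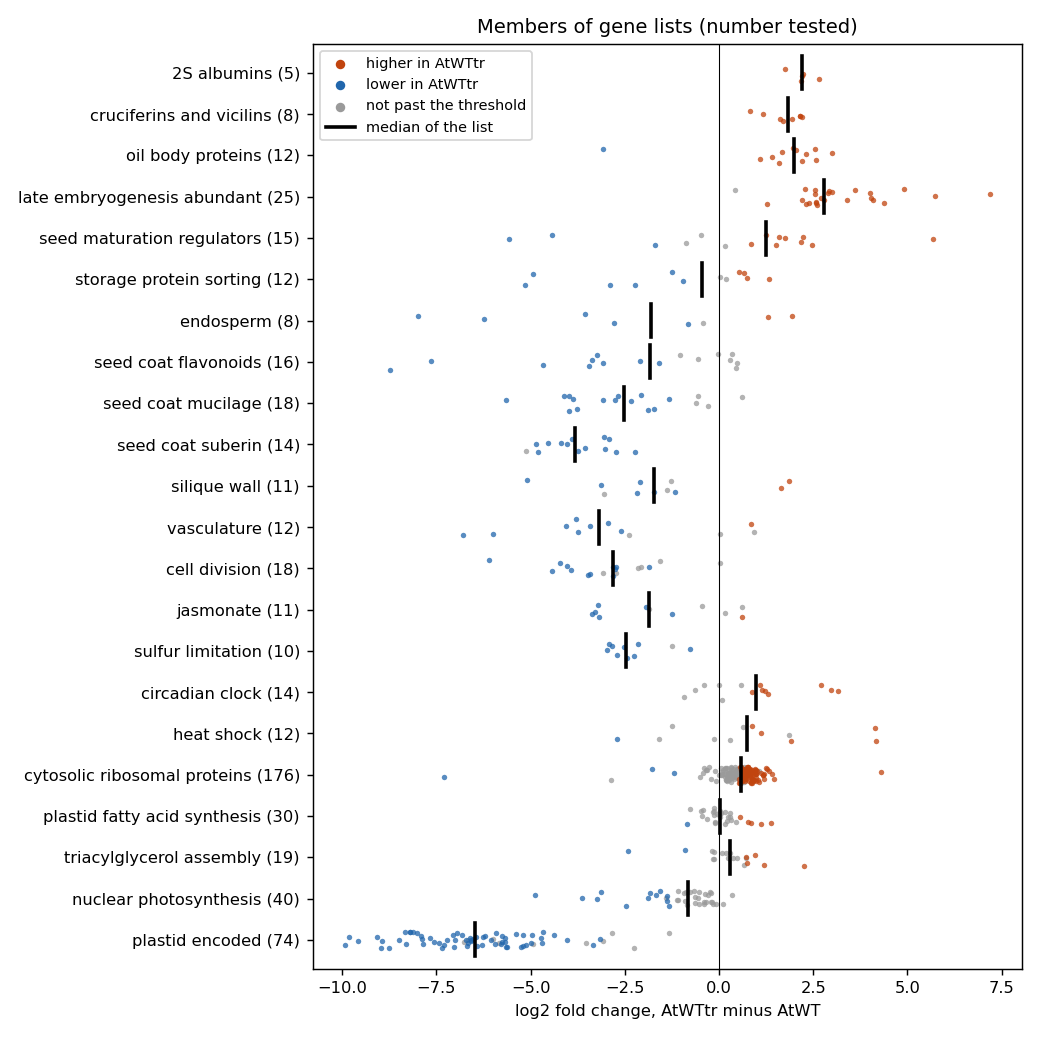
Log2 fold changes of AtWTtr over AtWT for each tested member of 22 gene lists, with 1 point per gene, the number tested in brackets and a black line at the median of the list. Points of the storage, oil body and LEA lists lie mostly right of 0, while those of the seed coat, vasculature, cell division and plastid-encoded lists lie mostly left of 0.

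Most genes of the seed coat lists fell. Of 14 tested suberin genes, 13 were lower in AtWTtr and 0 higher (19.1% of all genes were lower), with a median log2 fold change of -3.82, or -3.65 with the gene at 0 counts in AtWTtr set at its bound. Of 18 mucilage genes, 14 were lower and 0 higher, with a median of -2.51. Of 16 flavonoid and tannin genes, 9 were lower and 0 higher, with a median of -1.84 that was -2.89 without AtWTtr1. GPAT5, an acyltransferase of suberin, had 0.683, 0.706 and 1.33 CPM in AtWTtr, against 27.6, 20.2 and 28.6 CPM in AtWT (log2 fold change -4.81 (SE 0.37), adjusted p = 3.99e-07 in edgeR). FAR1, which makes the fatty alcohols of suberin, had 2.53, 2.95 and 3.64 CPM in AtWTtr and 40.2, 34.3 and 48.0 CPM in AtWT. Levels in AtWTtr stayed within 0 to 19.2 CPM for all 14 suberin genes. ABCG20, a suberin exporter, had 8.54, 8.02 and 16.2 CPM in AtWTtr and 206, 139 and 187 CPM in AtWT.

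Among mucilage genes, SBT1.7, a subtilase of mucilage release, had 81.3, 79.8 and 119 CPM in AtWTtr, against 895, 715 and 781 CPM in AtWT. MUM2, a beta-galactosidase that modifies mucilage, had 2.39, 3.79 and 2.38 CPM in AtWTtr and 46.1, 38.9 and 49.7 CPM in AtWT. The groups were well apart for both, with log2 fold changes of -3.09 (SE 0.24) and -3.97 (SE 0.28). The tannin genes that fell include late steps of the pathway. TT10, the laccase that browns the coat, had 25.6, 13.6 and 25.9 CPM in AtWTtr, against 676, 422 and 548 CPM in AtWT (log2 fold change -4.66 (SE 0.35)). BAN, which makes the tannin precursors, had 0.342, 0 and 0 CPM in AtWTtr and 24.4, 19.0 and 27.7 CPM in AtWT. TT2, the MYB factor that switches BAN on, had 0 counts in AtWTtr and 255 in AtWT, so it was at least 33.5-fold lower against a floor of 3 counts over the group. The early enzymes shared with other flavonoids, TT4 (chalcone synthase) and TT5 (chalcone isomerase), did not pass the threshold. TT4 had 541, 506 and 929.9 CPM in AtWTtr and 517, 473 and 447 CPM in AtWT, and FLS1, the flavonol synthase, had 249, 193 and 257 CPM in AtWTtr and 206, 199.9 and 171 CPM in AtWT. The groups overlapped for both.

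The endosperm list was small after the filter: 8 of 15 genes were tested, 5 lower and 2 higher. The median log2 fold change was -1.81, and -3.13 without AtWTtr1. ALE1, a subtilase that the endosperm provides for the embryo's cuticle, had 0.0683, 0 and 0.140 CPM in AtWTtr, against 19.3, 18.3 and 17.9 CPM in AtWT. These were 3 counts in AtWTtr and 2103 in AtWT, a ratio of AtWT over AtWTtr of 276 with a 95% counting interval of 94.3 to 1339. KRS, a peptide gene of the sheath around the embryo, had 0.478, 0 and 0.489 CPM in AtWTtr and 16.9, 30.6 and 25.3 CPM in AtWT. ZOU, the factor needed for the breakdown of endosperm, had 0.752, 0.257 and 0.350 CPM in AtWTtr and 5.32, 4.01 and 6.65 CPM in AtWT. No value of these genes in AtWTtr reached the lowest in AtWT. EPR1, an extensin-like gene described in the endosperm of germinating seeds, went the other way with 5924, 10113 and 16288 CPM in AtWTtr and 3281, 2294 and 2867 CPM in AtWT (log2 fold change 1.94 (SE 0.34)). The formin gene FH5 also rose, by 1.30 (SE 0.27).

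**Figure D4:**
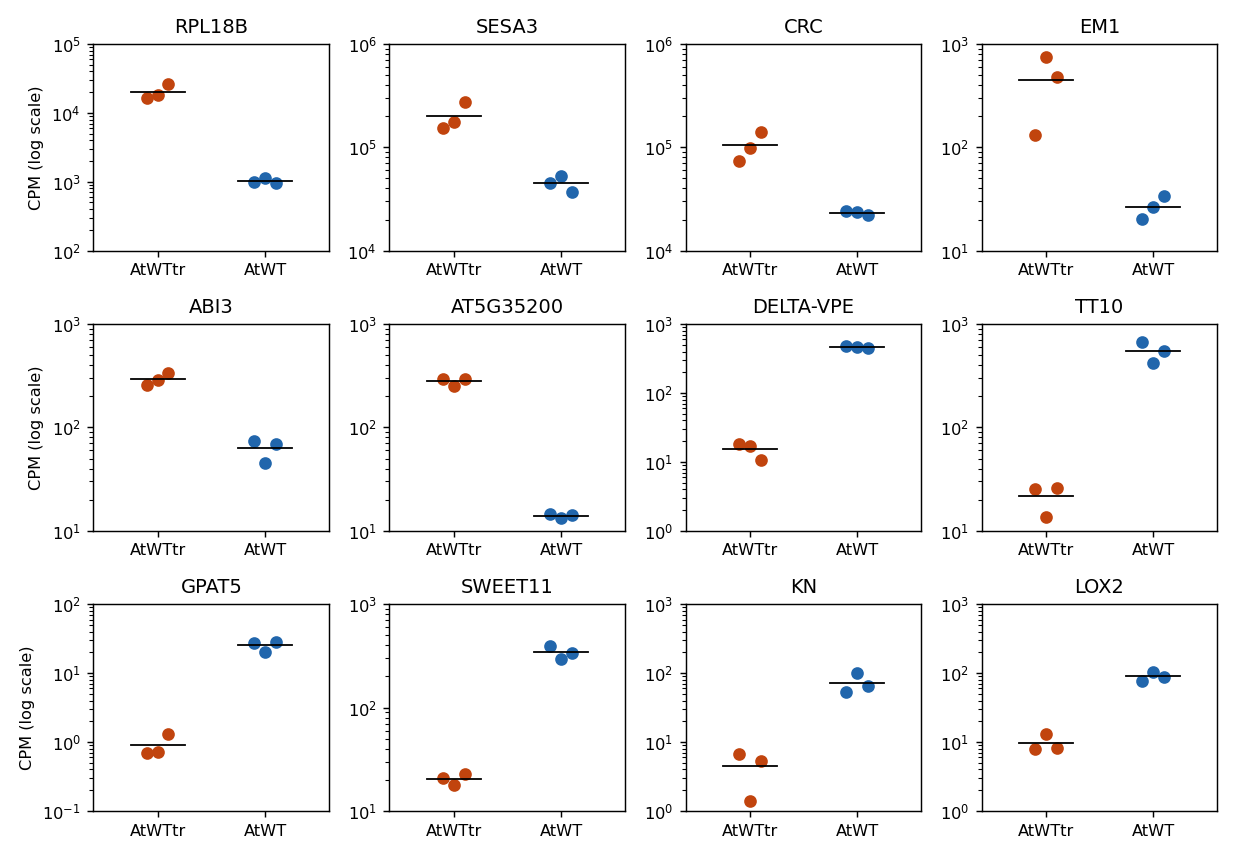
CPM of 12 genes in the 3 AtWTtr libraries (left in each panel) and the 3 AtWT libraries (right) on log axes that differ between panels, with 1 point per library and a line at the mean. The groups do not overlap in any panel: the first 6 genes are higher and the last 6 lower in AtWTtr.

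Genes known from the fruit wall and from vascular strands, tissues that surround or feed the seed, mostly fell. Of 12 tested vascular genes 8 were lower and 1 was higher, with a median log2 fold change of -3.19, or -2.77 with XCP1, at 0 counts in AtWTtr, set at its bound. SWEET11, a sucrose exporter of the seed coat and of phloem, had 21.0, 17.7 and 23.0 CPM in AtWTtr, against 395, 299 and 338 CPM in AtWT (log2 fold change -4.06 (SE 0.28), adjusted p = 1.6e-07 in edgeR). CESA4, a cellulose synthase of secondary walls, had 3.90, 1.03 and 1.75 CPM in AtWTtr and 25.4, 28.3 and 35.7 CPM in AtWT. The phloem loader SUC2 was the exception, with 283, 369 and 415 CPM in AtWTtr and 218, 189 and 187 CPM in AtWT (log2 fold change 0.84 (SE 0.23)), a call that the list lost with the scaling outside storage genes and without AtWTtr3. Of 11 fruit wall genes 6 were lower and 2 higher. In TMM-scaled CPM the summed level of this list did not fall. It was 214, 179 and 306 CPM in AtWTtr and 175, 158 and 189 CPM in AtWT. As a share of counts the list took 0.0184%, 0.0135% and 0.0196% in AtWTtr, less than the 0.0260%, 0.0214% and 0.0288% in AtWT. SHP2, a MADS-box factor of fruit and ovule, had 0, 1.73 and 0.979 CPM in AtWTtr, against 34.6, 25.9 and 33.9 CPM in AtWT. YAB1, a factor of the lower side of leaves and cotyledons as well as of the fruit, had 121, 105 and 193 CPM in AtWTtr and 44.6, 36.2 and 34.7 CPM in AtWT. SHP2 fell by 5.10 and YAB1 rose by 1.86 on the log2 scale. The call of SHP1 (-3.14) was lost with counts of either strand alone (-0.03 and -0.13). Of 8 guard cell genes 2 were lower, and their levels were at most 17.6 CPM in AtWT for MYB60 and 1.15 CPM for SLAC1. SLAC1 turned direction with counts of either strand (0.34 and 0.58 on the log2 scale), which left 1 gene lower, and the median of the list was then 0.13 with 1 of the strands, against -0.44.

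Cell division genes were low in AtWTtr. Of 18 tested, 12 were lower and 0 higher, with a median log2 fold change of -2.81 that was -3.66 without AtWTtr1. KN, the syntaxin of the forming cell plate, had 6.70, 1.41 and 5.31 CPM in AtWTtr, against 54.1, 99.6 and 64.2 CPM in AtWT (log2 fold change -4.02 (SE 0.57), adjusted p = 7.79e-05 in edgeR). HIK, a kinesin of cytokinesis, had 0.478, 0.193 and 0.489 CPM in AtWTtr and 7.18, 7.59 and 6.93 CPM in AtWT. CYCB1;2, a mitotic cyclin, had 0.683, 0.514 and 0.979 CPM in AtWTtr and 10.3, 12.9 and 10.2 CPM in AtWT. The groups did not overlap for these genes, and AtWTtr2 was the lowest library for each of them. The kinase AUR2 did not follow, with 9.57, 9.31 and 12.4 CPM in AtWTtr and 8.99, 10.8 and 10.7 CPM in AtWT. Of 40 tested histone genes, 20 were lower and 3 higher, with a median of -0.70. AT5G10390, a histone gene, had 5.19, 4.88 and 6.29 CPM in AtWTtr and 14.6, 18.2 and 16.4 CPM in AtWT, while RAT5, a histone H2A gene, had 177, 219 and 234 CPM in AtWTtr and 61.6, 90.7 and 68.0 CPM in AtWT. AT5G10390 fell by 1.59 and RAT5 rose by 1.52 on the log2 scale.

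Mitotic genes are known to carry the MSA element, whose core is AACGG. It was found on either strand in 12 of 18 windows of the division list and 22 of 40 of the histone list, against 20.6% of all windows. Genes that fell did not hold it more often as a set. The share was 20.2% of those, 19.2% of those lower by at least 2 on the log2 scale and 22.6% of genes not called. The window of KN (chromosome 1, 2711001 to 2711250, minus strand, 250 bases before the gene start in RefSeq TAIR10.1) is printed to show 1 of them, with its single MSA core match in capitals.
KN: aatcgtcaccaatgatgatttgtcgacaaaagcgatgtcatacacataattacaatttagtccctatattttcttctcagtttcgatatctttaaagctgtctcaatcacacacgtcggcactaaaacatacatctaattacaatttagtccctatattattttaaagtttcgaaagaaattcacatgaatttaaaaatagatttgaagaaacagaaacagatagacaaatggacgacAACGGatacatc

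Transcripts of the organelles were at very low levels in AtWTtr. Of 74 tested plastid-encoded genes 64 were lower and 0 higher, with a median log2 fold change of -6.49, and of 39 mitochondrion-encoded genes 22 were lower and 0 higher, with a median of -3.93. With the 37 and 12 of these genes that had 0 counts in AtWTtr set at their bound (3 counts over the group), the medians were -4.48 and -2.98. The plastid-encoded genes summed to 8.61, 13.3 and 10.4 CPM in AtWTtr, against 80.7, 805 and 801 CPM in AtWT. The mitochondrion-encoded genes summed to 85.8, 87.6 and 50.9 CPM in AtWTtr and 219, 1295 and 992 CPM in AtWT. AtWT1 was far below AtWT2 and AtWT3 in both sums, yet above every AtWTtr library. The libraries are labelled as poly(A) RNA, which organelle transcripts mostly lack, so these are residual levels. ATCG00490 had 0.478, 0 and 0.629 CPM in AtWTtr and 7.93, 75.4 and 62.2 CPM in AtWT. With only the 6 libraries in the fit, 44 plastid-encoded genes were tested and 40 were lower.

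Nuclear photosynthesis genes were lower in part. Of 40 tested, 12 were lower and 0 higher, with a median log2 fold change of -0.81. RBCS3B, a small subunit of Rubisco, the enzyme that fixes carbon dioxide, had 15.4, 8.28 and 29.3 CPM in AtWTtr, against 200.2, 237 and 220.4 CPM in AtWT (log2 fold change -3.64 (SE 0.46)). LHCB4.2, an antenna protein of photosystem II, had 62.7, 28.5 and 73.0 CPM in AtWTtr and 177, 198 and 150.4 CPM in AtWT (log2 fold change -1.68 (SE 0.38)). AtWTtr2 was the lowest library for both, and it had 4511 CPM over the list, against 12588 and 12089 in the other AtWTtr libraries. Without AtWTtr2, or without AtWT2, 7 genes were lower. The RBCS genes are near-identical copies, so reads may be lost or divided among them.

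Several lists outside the seed's storage program also moved. Of 11 tested jasmonate genes, 6 were lower and 1 was higher. The higher one, JAZ2, a repressor of the pathway, had a log2 fold change of 0.62 (SE 0.22), and 0 genes were higher with either other scaling, with the 6 libraries alone, with either strand, or without AtWTtr3, AtWT2 or AtWT3. LOX2, a lipoxygenase of jasmonate synthesis, had 7.93, 12.9 and 8.32 CPM in AtWTtr, against 77.3, 105 and 87.2 CPM in AtWT (log2 fold change -3.21 (SE 0.24), adjusted p = 2.83e-07 in edgeR). VSP2, a vegetative storage protein induced by jasmonate, had 20.2, 23.9 and 36.4 CPM in AtWTtr and 231, 249.9 and 249 CPM in AtWT. JMT, which makes methyl jasmonate and belongs to no list, had 0.615, 0 and 0.350 CPM in AtWTtr and 65.2, 68.9 and 65.7 CPM in AtWT, the largest fall by the naming rule at -7.70 (SE 0.72). For all 3 genes the groups lay far apart. AOS, an enzyme of the same pathway, was not called (0.15 (SE 0.27)).

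Of 10 tested genes that respond to sulfur shortage, 9 were lower and 0 higher, with a median log2 fold change of -2.48. APR3, of sulfate reduction, had 10.1, 8.15 and 9.93 CPM in AtWTtr, against 37.98, 52.2 and 63.0 CPM in AtWT (log2 fold change -2.44 (SE 0.28)). SULTR1;2, a sulfate transporter, had 0.752, 1.41 and 1.82 CPM in AtWTtr and 10.9, 8.68 and 11.6 CPM in AtWT (log2 fold change -2.97 (SE 0.43)). Both were lower in every AtWTtr library. In the double mutant 2 of the 10 were lower in AtBDtr than in AtBD and the median was -0.27. SULTR1;2 averaged 2.52 ± 1.503 CPM in AtBDtr and 3.24 ± 0.232 CPM in AtBD (SD, n = 3 each), and the difference between the genotypes in its tr effect was not called (adjusted p = 0.999999, edgeR).

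Clock genes rose in part. Of 14 tested, 8 were higher (15.1% of all genes were) and 0 lower, with a median log2 fold change of 0.97. As a share of counts the list took 0.0177%, 0.0229% and 0.0144% in AtWTtr and 0.0200%, 0.0129% and 0.0198% in AtWT, which overlapped. FKF1, a blue light receptor of the afternoon, had 24.5, 27.5 and 15.2 CPM in AtWTtr, against 3.70, 2.24 and 4.39 CPM in AtWT (log2 fold change 2.70 (SE 0.28)). PRR3, an evening pseudo-response regulator, had 37.1, 63.6 and 27.3 CPM in AtWTtr and 5.52, 4.29 and 4.61 CPM in AtWT (log2 fold change 3.15 (SE 0.33)). The groups did not overlap for either. The morning genes LHY and CCA1 did not pass the threshold, with CCA1 at 5.88, 11.9 and 15.0 CPM in AtWTtr and 17.8, 13.7 and 19.9 CPM in AtWT. The labels do not give the hour of harvest.

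Stress lists gave no single picture. Of 12 tested heat shock genes 5 were higher and 1 was lower, and 3 were higher without AtWTtr2, AtWT1 or AtWT3. The lower one, MBF1C, lost its call with counts of either strand (-0.18 and 0.04). HSP17.4, a small heat shock protein also made in maturing seeds, had 11.96, 138 and 68.0 CPM in AtWTtr, against 3.05, 4.79 and 4.58 CPM in AtWT. AtWTtr2 was highest, as in the LEA genes. HSP17.6A had a log2 fold change of 4.17 (SE 1.29) but lost the call without AtWTtr2, AtWT1 or AtWT3. Of 14 low-oxygen genes 2 were higher and 3 lower, ADH1 (alcohol dehydrogenase) among the first with 169, 342 and 291 CPM in AtWTtr and 69.7, 88.0 and 70.1 CPM in AtWT. PDC2 (pyruvate decarboxylase), the other one, lost its call without AtWTtr2 or AtWT1, and 1 gene was higher without AtWT1. The median of this list was -0.53 without AtWTtr1. Of 7 wounding and touch genes 1 was higher and 1 lower, each lost in several alternatives. Of 7 genes induced when sugar is short 3 were lower and 0 higher, DIN10 with 2.80, 1.54 and 1.47 CPM in AtWTtr and 21.1, 15.4 and 24.6 CPM in AtWT.

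The 10 largest rises with a mean log2 CPM of 2 or more and no overlap were EM6, FTIP1, RAB18, AT5G35200, XTH25, RPL18B, HSP17.6A, HSP17.4, AT1G14930 and EM1. The LEA and heat shock genes among them were lowest in AtWTtr1 and highest in AtWTtr2 of the AtWTtr libraries. AT5G35200 (chromosome 5, 13462155 to 13466150), annotated as an ENTH/ANTH/VHS family protein, had 293, 249 and 295 CPM in AtWTtr, against 14.4, 13.2 and 14.1 CPM in AtWT. The libraries of each group lay close together, and its log2 fold change of 4.33 (SE 0.26) had the smallest adjusted p of the genes that rose (1.05e-07, edgeR). FTIP1, known for moving the florigen FT, had 25.4, 23.8 and 46.3 CPM in AtWTtr and 1.20, 0.467 and 1.22 CPM in AtWT (log2 fold change 5.02 (SE 0.38)). In the double mutant AT5G35200 averaged 222 ± 83.5 CPM in AtBDtr and 11.97 ± 1.25 CPM in AtBD (SD, n = 3 each) and a log2 fold change of 4.21. FTIP1 averaged 28.4 ± 3.63 CPM in AtBDtr and 1.25 ± 0.372 CPM in AtBD there (SD, n = 3 each). XTH25, a wall-loosening enzyme, had 276, 3016 and 1261 CPM in AtWTtr and 54.8, 100.0 and 75.6 CPM in AtWT, with AtWTtr2 highest as for RAB18.

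The 10 largest falls among genes with a mean log2 CPM of 2 or more over the 6 libraries were JMT, AT5G15180, AT4G11180, MES6, FLA5, AT4G12960, AT2G43050, KCS19, RRA1 and RLP55. By annotation these include a peroxidase (AT5G15180), a dirigent-like protein (AT4G11180), a methyl esterase (MES6), a fasciclin-like arabinogalactan protein (FLA5), a pectin methylesterase inhibitor (AT2G43050), a fatty acid elongase (KCS19) and an arabinosyltransferase (RRA1). AT4G12960, a GILT family thiol reductase, had 8.61, 0 and 3.08 CPM in AtWTtr, against 430.2, 624 and 486 CPM in AtWT. MES6 had 7.38, 0.578 and 3.36 CPM in AtWTtr and 584, 473 and 476 CPM in AtWT. KCS19 had 1.09, 0.128 and 1.05 CPM in AtWTtr and 60.8, 60.8 and 61.8 CPM in AtWT. AtWTtr1 was the highest AtWTtr library and AtWTtr2 the lowest for these 3 genes, and all were far below AtWT. The smallest adjusted p of the whole fit was shared by CEP1 and a few other genes that fell. CEP1 codes for a papain-type endopeptidase with an endoplasmic reticulum retention signal, and was chosen here after its value was seen. It had 14.7, 14.9 and 12.1 CPM in AtWTtr, against 423, 326 and 402 CPM in AtWT (log2 fold change -4.79 (SE 0.27), adjusted p = 1.03e-07 in edgeR). RD21B, another papain-type protease seen the same way, had 5.67, 3.92 and 5.31 CPM in AtWTtr and 109, 103 and 119 CPM in AtWT (log2 fold change -4.47 (SE 0.28)).

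Beyond the lists, families named alike in the annotation differed in how often they fell. Of the families with at least 30 tested genes, peroxidases had 18 of 31 lower, bifunctional inhibitors (lipid transfer proteins) 28 of 52, GDSL lipases 25 of 47 and invertase or pectin methylesterase inhibitors 28 of 54, against 19.1% of all genes. MYB domain factors had 29 of 63 lower and 3 higher, and NAC factors 21 of 46 lower and 4 higher. Pentatricopeptide repeat proteins, which process RNA in organelles, had 3 of 173 lower and 8 higher. Genes that fell had slightly fewer exons, with a median of 4, against 5 in those that rose and 5 in those not called. A single exon was found in 19.7% of those that fell, 11.4% of those that rose and 14.8% of those not called. These sets also differ in abundance, with median mean log2 CPM of 2.18, 4.42 and 2.78. Of genes in the longest class of transcripts 10.3% fell and 19.5% rose, while of those in the shortest class 22.8% fell and 16.8% rose. GC content of the gene region barely differed, with medians of 38.9% for genes that rose, 38.6% for those that fell and 38.9% for the rest. The part of transcript length, exon number or abundance in the results was not tested.

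Set beside wild type, the double mutant gave 2479 genes higher (12.8%) and 3276 lower (16.9%) in AtBDtr than in AtBD, comparisons that share no library with those of wild type. Higher in both were 1895 genes, 64.7% of those of wild type and 76.4% of those of the mutant. Lower in both were 2630 genes, 71.2% and 80.3%, and 0 genes were called in opposite directions. RPL18B had a log2 fold change of 4.32 there. The LEA list had 24 of 25 genes higher in the mutant too, and the suberin list 13 of 14 lower. Nuclear photosynthesis genes had 27 of 40 lower in the mutant with a median of -1.51, against 12 of 40 and -0.81 in wild type. The test of the difference itself called 0 of 19376 genes with edgeR (0.0%), where 805 had an unadjusted p under 0.05, and 4 with DESeq2, so none of the changes described is shown to be particular to wild type.

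**Figure D5:**
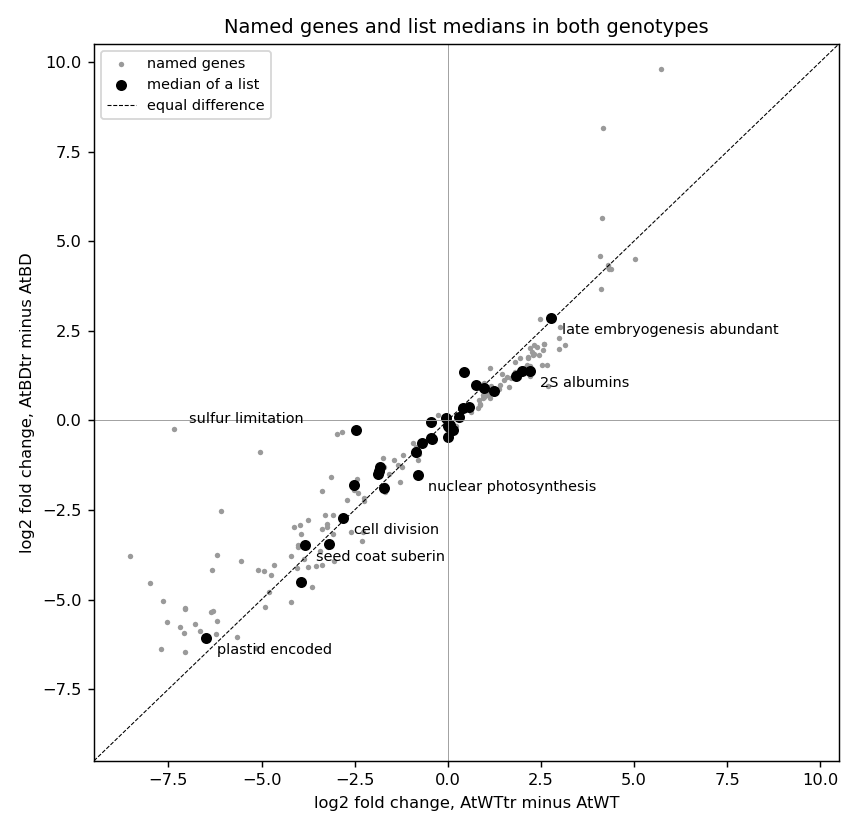
Log2 fold change of AtWTtr over AtWT (horizontal) and of AtBDtr over AtBD (vertical) for the 151 named genes (grey) and the medians of the lists (black), with a dashed line where both are equal. Most points lie near the line. The sulfur limitation list, at -2.48 and -0.27, lies farthest above it among the labelled lists.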

How the data were processed

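Total and pulled-down RNA of developing seeds was sequenced. The submitters' processing notes name TopHat, Cufflinks and Cuffdiff and the TAIR10 genome, while the deposited counts have the layout of STAR gene counts, which have an unstranded column and 2 strand columns. The authors deposited raw counts of reads per gene and nothing was normalized before. The unstranded counts were used, so overlapping and antisense genes cannot be told apart, and reads that map to several places are left out, which makes single members of the SESA, EF1A, RBCS and LHCB2 families uncertain.

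The libraries of AtWTtr, AtWT, AtBDtr and AtBD, grouped by title, were fitted together with edgeR 4.0.16 (R 4.3.3, limma 3.58.1): filterByExpr, TMM scaling, a quasi-likelihood test per contrast and Benjamini-Hochberg adjustment over all 19376 genes, with a threshold of 0.05. Standard errors are the log2 fold change divided by the root of F. CPM are counts over the TMM-scaled total. The script was tested on simulated data. Intervals at 95% and floors of 3 counts cover counting error only.

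The genes named are the 10 largest rises and falls past the threshold without overlap (mean log2 CPM 2 or more), the 4 called members of each list with the smallest adjusted p (or the 2 most abundant where none was called), and RPL18B, RPL18C, BADC1 and BADC3. Genes named beyond this rule were chosen after their values were seen. The members and lists were chosen with earlier results of these data known. Gene names and upstream windows come from RefSeq TAIR10.1. Same-numbered libraries did not deviate together (correlations of -0.033, 0.0006 and -0.0096). Alternatives were DESeq2 1.42.0, other scalings and filters, strand columns, nuclear genes only, fewer libraries and a replicate block.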

Additional observations from a re-analysis of the deposited data

How the results depend on the processing

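The 6623 genes called became 4891 to 6178 when 1 library was left out, 5958 with the 6 wild-type libraries alone and 7298 with DESeq2. With the replicate block they were 5082, although the numbers share only a label and no AtWTtr library correlated best with its own number in AtWT. Scaling outside storage, oil body and LEA genes gave 1604 higher and 4660 lower, and all 3692 genes lower under TMM remained lower. The genotype difference had 0 calls with edgeR and 4 with DESeq2. Direction turned for SLAC1 with counts of either strand (0.34 and 0.58) and for MBF1C with 1 strand (0.037). The cause was not tested. Medians near 0 (endoplasmic reticulum, fatty acid synthesis, low oxygen, lipid breakdown, starch, sucrose) changed sign in some alternatives. Genes with few counts in AtWTtr are limited by depth.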
